A study of Mus musculus with 3 samples.

Results

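The genes described here encode the proton pump and the main digestive and membrane proteins of the lysosome, the acidic compartment in which macrophages break down what they engulf. They are the genes with a protein-coding transcript whose symbol places them among the vacuolar proton pump (V-ATPase) subunits and accessory proteins, the cathepsins, the LAMP membrane proteins or the mucolipin channels, together with Tcirg1, Cd68, Lyz1, Lyz2, Tfeb and Tfe3. This rule, which used no measured value, found 57 genes of the 55536 annotated genes in the deposited gene tables. It also took Atp6v1fnb, a neighbour of Atp6v1f that is no pump subunit. By role the 57 genes comprised 13 V1 sector genes, 10 V0 sector genes, 3 genes of accessory proteins, 14 cysteine cathepsins, 4 aspartic and serine cathepsins, 2 lysozymes, 5 genes of the LAMP family with Cd68, 3 mucolipins, 2 transcription factors and Atp6v1fnb.

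The libraries hold ribosomal RNA-depleted total RNA bound to chromatin in macrophages grown from the bone marrow of C57BL/6J mice and stimulated with lipid A at 100 ng/ml for 120 min. Lipid A is the part of bacterial endotoxin that the receptor TLR4 recognises. There was 1 group of 3 libraries, labelled biological replicates 1, 2 and 3, made from 1 µg, 250 ng and 500 ng of RNA, all with the same donor label and with neither sex nor age recorded, so no level in unstimulated cells and no other fraction was compared. Nothing in the labels says that the libraries came from separate cultures, so each spread or p-value refers to these 3 libraries and may reflect technical variation, and starting quantity and replicate cannot be told apart.

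As background, the V-ATPase burns ATP in its cytosolic V1 sector to turn a rotor that drives protons through the membrane-bound V0 sector into the lumen. The acid activates cathepsins, proteases made as inactive precursors, while heavily glycosylated LAMP proteins line the membrane and mucolipins release calcium through it. The transcription factors TFEB and TFE3 move into the nucleus when lysosomes are stressed or nutrients are scarce and bind E-box elements near many lysosomal genes, often within the longer CLEAR element. Macrophages are rich in lysosomes, and RNA held on chromatin contains transcripts that are still being made or spliced.

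The E-box CACGTG, which reads the same on both strands, was searched in RefSeq promoters of GRCm38.p6, each holding 250 bases before and 50 bases after a gene's start. It occurred in 11 of 56 promoters of these genes (46 genes had an entry), or 19.6%, against 7.15% of all 32851 promoters. The longer TCACGTGA, which contains that E-box, occurred in 6 of the 56 (10.7%), against 0.974% of all. These were the promoters of Atp6v0d1, Atp6v0e, Atp6v1a, Ctsa, Ctsd and Mcoln1. GAGGAAGT, a core of sites for the macrophage factor PU.1 searched with its reverse complement ACTTCCTC, occurred in 3 of the 56 (Ctsc, Ctss and Mcoln3), or 5.36%, against 3.2% of all. A match describes these letters and is not a binding site. Some genes have more than 1 promoter in the table. Windows before a RefSeq start are shown for a membrane protein with 4 E-boxes, a pump subunit, a mucolipin and the lysosomal proteases Ctsd and Ctsa, with CACGTG in capitals.
Lamp1: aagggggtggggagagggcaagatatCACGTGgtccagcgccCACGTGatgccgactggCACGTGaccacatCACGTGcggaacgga
Atp6v1a: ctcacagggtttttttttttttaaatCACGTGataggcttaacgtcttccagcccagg
Mcoln2: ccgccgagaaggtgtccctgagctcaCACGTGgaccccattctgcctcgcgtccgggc
Ctsd: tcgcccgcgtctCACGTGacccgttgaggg
Ctsa: tgagcaaactgtCACGTGatgcag
In GRCm38.p6 the Lamp1 window is chr8:13159074-13159160 on the plus strand, with its last E-box ending 9 bases before the start. The Atp6v1a window is chr16:44139359-44139416 on the minus strand and the Mcoln2 window is chr3:146150076-146150133 on the plus strand. These 3 windows lie outside annotated exons. The Lamp1 window precedes the whole gene, whereas the other 4 windows precede the start of a RefSeq transcript and lie within the gene's bounds in GENCODE M21, after the outermost annotated start. The Ctsd window, chr7:142387908-142387937 on the minus strand, and the Ctsa window, chr2:164833749-164833772 on the plus strand, overlap an exon of an annotated transcript.

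Of the 57 genes, 36 had at least 1 TPM (a level per transcript length that sums to the same total in each library) in every library. The same held for 37.4% of all 22028 protein-coding genes. A mean of at least 10 TPM was reached by 30 genes. Another 9 had no count in any library, which allows at most 0.152, 0.147 and 0.136 CPM (annotated counts scaled by the library total) in replicates 1, 2 and 3. These were Atp6ap1l, Atp6v0a4, Atp6v1e2, Ctsg, Ctsj, Ctsm, Ctsq, Ctsr and Lamp5. Including these, 14 genes had at most 3 counts in every library.

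The macrophage label was checked against markers. All 10 macrophage markers reached 1 TPM in every library, with Msr1, Adgre1 and Mertk highest at means of 210, 188 and 71.5 TPM and Cebpb lowest at 4.8 TPM. No gene of the neutrophil (11 genes), T and NK cell (9), B cell (6) and dendritic cell (7) lists did, and 2 of 8 osteoclast markers did. Summed levels were 0.75, 2.93 and 0.74 TPM for neutrophil markers and 12.6, 21.8 and 13.3 TPM for osteoclast markers, the latter mostly Acp5 and Nfatc1, and 549, 808 and 550 TPM for macrophage markers. Sums of the T and NK cell markers were at most 0.07 TPM, of the B cell markers 0.66 TPM and of the dendritic cell markers 1.61 TPM. Replicate 2 was thus the highest library for each of these lists. Cxcr2, Elane, Ly6g, Calcr, Ocstamp, Oscar, Blk and Cd209a had no count, nor did the T and NK cell markers Cd2, Cd3e, Gzma, Klrb1c, Nkg7, Prf1 and Trbc2. The other quantifier, a further deposited table made straight from the reads, gave means of at least 1 TPM to 6 markers that were below it here. These were Cd3d (7.68 TPM), Ocstamp (3.96), Cxcr2 (3.91), Ebf1 (2.14), Zbtb46 (1.58) and Mpo (1.05). Gene totals were 19751051, 20372850 and 21984526 expected counts, and protein-coding genes took 17.9%, 23.7% and 24.3% of all TPM. Of 15 ribosomal protein genes, all were highest in replicate 2, with a median 2.84-fold over the other libraries, as were 10 of 11 mitochondrially encoded protein genes, with a median of 10.3-fold. The part of this difference between libraries in the results below was not tested. In bulk RNA, fewer cells of a type and less RNA per cell cannot be told apart.

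The membrane sector of the pump held the highest gene of the whole group. Tcirg1, whose product is the a3 form of the subunit that carries protons through V0 and that directs pumps to lysosomes and to the osteoclast surface, had 782, 939 and 965 TPM in replicates 1, 2 and 3. Its mean of 895 ± 98.7 TPM (SD, n = 3) placed it at rank 9 among protein-coding genes. Tcirg1 lies at chr19:3896050-3907133 on the minus strand in GRCm38. The libraries lay close together, and the other quantifier gave 1006, 894 and 1277 TPM.

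Among the other forms of subunit a, Atp6v0a1 (a1, on many endosomal membranes) had 82.8, 84.7 and 68.3 TPM, and Atp6v0a2 (a2, mostly on the Golgi) had 10.4, 12.4 and 16.5 TPM. The kidney form Atp6v0a4 had no count. The order a3, a1, a2, a4 held in each library, with no overlap between the forms.

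The proteolipid ring that turns within V0 is built from the products of Atp6v0b and Atp6v0c. Atp6v0b had 248, 271 and 299 TPM, at rank 90 among protein-coding genes, with little difference between libraries. Atp6v0c had 32.9, 116 and 34.7 TPM and so stood high in replicate 2 only. Of the stretches of 50 bases in Atp6v0c transcripts, 10.8% also occur in 2 pseudogenes of it, so its level is less certain.

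The d subunit joins the ring to the rotor stalk. Atp6v0d1, its widespread form, had 7.67, 18.3 and 7.16 TPM, and Atp6v0d2, the form of osteoclasts and macrophages, had 2.95, 12.8 and 3.69 TPM. Both were highest in replicate 2, and Atp6v0d1 was above Atp6v0d2 within each library, although their ranges over libraries overlapped. Atp6v0e, a small membrane subunit, had 4.6, 19.2 and 6.85 TPM, while its paralog Atp6v0e2 had 0, 0.04 and 0 TPM. The other quantifier gave Atp6v0e2 0.808, 1.68 and 3.6 TPM, and it was the 1 gene of 19 with a mean under 1 TPM that reached 1 TPM there.

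In the V1 sector, Atp6v1b2 and Atp6v1a encode the B and A subunits that form the ATP-splitting ring. Atp6v1b2 had 72.1, 87.2 and 84.8 TPM, against 0.27, 0.12 and 0.07 TPM for its kidney paralog Atp6v1b1. Atp6v1a, the catalytic subunit, had 26.3, 54.7 and 34.4 TPM. At gene level B thus exceeded A in each library, on this scale per length. Counting only isoforms annotated as protein-coding, Atp6v1b2 had 21.5, 30.95 and 16.14 TPM and Atp6v1a 19.95, 43.94 and 18.64 TPM. On that count B was above A in replicate 1 only.

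Peripheral stalks of E and G subunits and the C and H subunits hold the ring still. Atp6v1e1 had 45.6, 66.4 and 56.8 TPM and its testis paralog Atp6v1e2 none. Atp6v1g1 had 8.22, 26.2 and 10.8 TPM, Atp6v1g2, the neuronal form, 0.83, 2.02 and 2.08 TPM, and Atp6v1g3 0, 0 and 0.06 TPM. Of the Atp6v1g1 stretches of 50 bases, 19.2% also occur in the pseudogenes Gm13453 and Gm12344.

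For subunit C, Atp6v1c1 had 17.8, 32.6 and 24.3 TPM and Atp6v1c2 0, 0 and 0.1 TPM. Atp6v1h, a regulator of the coupling between the sectors, had 23, 36 and 36.2 TPM. In the rotor stalk, Atp6v1d had 14.9, 17.9 and 18.2 TPM and Atp6v1f 3.86, 18.6 and 3.94 TPM, a separation of replicate 2 that its stalk partner did not have. For each V1 subunit with paralogs, and for a and e in V0, a single form therefore held most of the level, while for subunit d the widespread form was the higher of 2 forms by a smaller distance.

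Accessory proteins assist assembly and targeting. Atp6ap1, which encodes the Ac45 subunit, had 21.5, 48.9 and 32.4 TPM, and Atp6ap2, the prorenin receptor, 8.04, 18.8 and 5.73 TPM. Both were highest in replicate 2. Atp6v1fnb had a mean of 0.277 ± 0.221 TPM.

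Cysteine cathepsins, the papain-like proteases of the lysosome, summed to 495, 1401 and 607 TPM. Ctsb, an endopeptidase that can also trim carboxyl ends, led them with 182, 718 and 217 TPM and ranked 51 among protein-coding genes. Replicate 2 stood 4.34-fold above the other libraries in TMM-scaled counts, that is, CPM after trimmed-mean scaling, taken as log2 with 0.1 added. Ctss, the protease that trims the invariant chain of MHC class II molecules, had 63.2, 205 and 59.3 TPM. Ctsl, an endopeptidase, had 33.7, 87.1 and 43.6 TPM, but 96.7, 126 and 150 TPM in the other quantifier. The highest library depended on the quantifier for other genes too: of the 28 genes highest in replicate 2 by TPM, 15 were so in the TPM of the other quantifier, while 11 were highest in replicate 3 there (Atp6ap1, Atp6v1a, Atp6v1b2, Atp6v1c1, Atp6v1e1, Ctsa, Ctsc, Ctsh, Ctsl, Ctso and Ctsw) and 2 in replicate 1 (Atp6v0a1 and Mcoln3).

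Ctsc (dipeptidyl peptidase I, which activates granule serine proteases) had 119, 171 and 153 TPM, with a smaller distance between libraries. Ctsz, a carboxypeptidase, had 51.7, 142 and 68.2 TPM. Ctsh, an aminopeptidase, had 40.8, 66.4 and 57.3 TPM. Ctsb was above each other cysteine cathepsin in each library, whereas the ranges of Ctss, Ctsc and Ctsz overlapped, as did those of Ctsz, Ctsh and Ctsl.

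Ctso, Ctsw and Ctsf were low, with means of 5.44 ± 1.8, 1.38 ± 0.813 and 0.683 ± 0.373 TPM. Ctsk, the collagenase of osteoclasts, had 0.293 ± 0.0252 TPM although its neighbour Ctss was high: in GRCm38 Ctsk lies at chr3:95499256-95509362 and Ctss at chr3:95526786-95556403, both on the plus strand. The cathepsins known from rodent placenta, Ctsj, Ctsm, Ctsq and Ctsr on chromosome 13 were without a count, although the other quantifier gave Ctsq 0.339, 0.541 and 1.28 TPM.

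Of the cathepsins of other catalytic types, Ctsd, the main aspartic protease of lysosomes, had 70.1, 554 and 40.5 TPM. It was 10.2-fold higher in replicate 2 than in the other libraries by TMM-scaled counts. The protein-coding gene model Gm49369 overlaps Ctsd on the same strand over 6757 bases and shares 32.4% of its stretches of 50 bases. Gm49369 was itself given a mean of 49.7 TPM, so the split of reads between both is uncertain. Ctsa, a serine carboxypeptidase that shields other lysosomal enzymes, had 82.5, 128 and 101 TPM, and the phospholipid transfer protein gene Pltp (mean 85.5 TPM) overlaps it on the opposite strand. Without a known strand setting their reads cannot be told apart where they overlap. Ctse had at most 0.05 TPM and Ctsg, a neutrophil granule protease, no count.

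Lyz2, the lysozyme of macrophages, which cuts bacterial cell walls, had 88.9, 873 and 39 TPM. It spanned 25-fold from its lowest to its highest library in TMM-scaled counts, the widest span of the genes tested here. The Paneth cell lysozyme Lyz1, which lies beside it and shares 16.1% of its stretches of 50 bases with Lyz2, had 0.133 ± 0.129 TPM.

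Among the membrane glycoproteins, Lamp1 had 36.7, 140 and 46.5 TPM and Cd68, the macrophage member of the family, had 16.4, 127 and 16.8 TPM. In both, replicate 2 stood far above the pair of other libraries. Lamp2, which also takes part in chaperone-mediated autophagy, had 42, 90.3 and 112 TPM and was highest in replicate 3. Lamp3, of mature dendritic cells, had at most 0.02 TPM and Lamp5, of neurons and plasmacytoid dendritic cells, no count.

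The mucolipin Mcoln2 had 196, 172 and 234 TPM (mean 201 ± 31.1 TPM) and ranked 143 among protein-coding genes. Mcoln1, the channel found in lysosomes of most cells, had 15.6, 19.4 and 21.6 TPM. Mcoln3 had 4.57, 5.77 and 2.79 TPM, although it lies next to Mcoln2 on the plus strand of chromosome 3 (chr3:146117450-146141806 against chr3:146149833-146195513). The order Mcoln2, Mcoln1, Mcoln3 held in each library without overlap.

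The MiT/TFE factors were low by comparison. Tfe3 had 7.17, 10.5 and 11.5 TPM and Tfeb 2.83, 1.83 and 1.57 TPM. Tfeb was lower than Tfe3 in each library. The other quantifier placed Tfeb at 8.02, 4.35 and 8.73 TPM and Tfe3 at 7.31, 7.67 and 11.6 TPM, where their ranges overlapped.

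**Figure D1:**
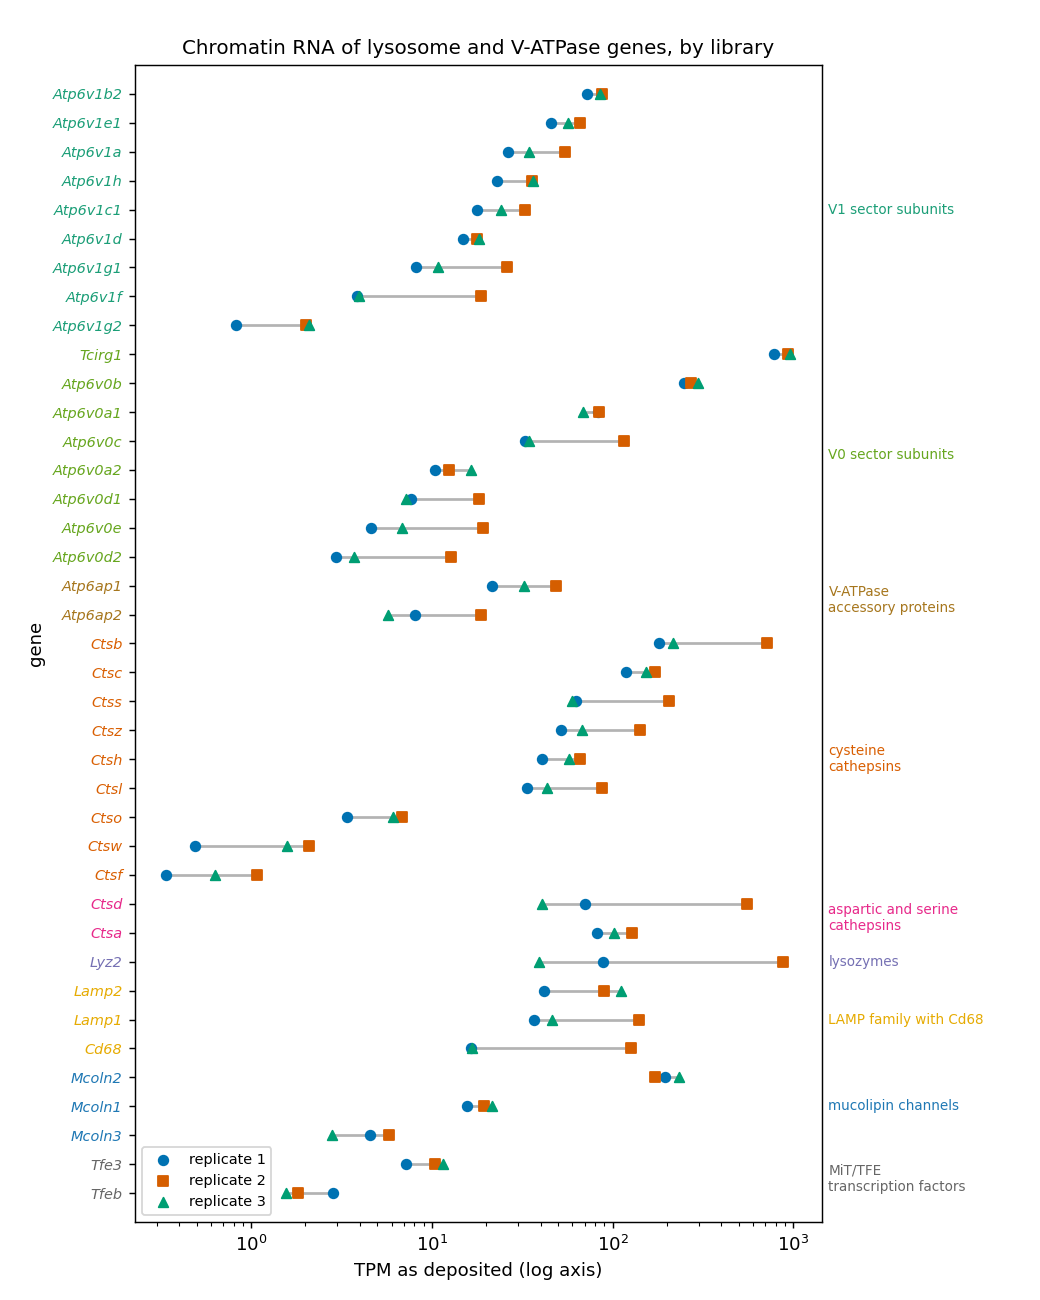
TPM as deposited (horizontal, log axis) of the 39 genes that averaged at least 10 counts, grouped by role and ordered by mean within it, where points are the 3 libraries and the grey line joins the lowest and the highest. Tcirg1 lies furthest right at 782 to 965 TPM, and Lyz2, Ctsd and Cd68 show replicate 2 far from both other libraries.

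The spread between the libraries was then compared with counting error. A chi-square test asked whether a gene's counts differed from equal TMM-scaled levels by more than Poisson sampling. Of 39 genes averaging at least 10 counts, 35 were called at an adjusted p under 0.05 (Benjamini-Hochberg over 14200 genes). Among all 14200 genes 68.8% were called. The test sets the spread against counting error alone, which is small at this depth, so a call says little about a gene beyond the sizes given below. The 4 that were not called were Atp6v0a2, Atp6v1g2, Ctsw and Mcoln1, with adjusted p = 0.0538, 0.103, 0.155 and 0.142.

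Of the 39 genes tested, 28 were called and highest in replicate 2, against 24.3% of all genes tested. Counted without regard to the call, 29 of the 39 were highest in replicate 2, against 35.2% of all genes and 41.1% of protein-coding genes tested. The count was 28 with DESeq2 size factors (29.9% of all genes), 28 by TPM (32.2%), 27 by TMM-scaled counts of the other quantifier (29.1%) and 15 by its TPM (9.12%). Among protein-coding genes tested these shares were, in the same order, 34.9%, 37.6%, 33% and 10.9%. Called genes highest in replicate 1 by TMM-scaled counts were Atp6v0a1, Atp6v0b, Mcoln2, Tcirg1 and Tfeb, and those highest in replicate 3 were Atp6v1h and Lamp2. For Tcirg1, Atp6v0b and Mcoln2 the order turned with the scale: in TPM, replicate 3 was the highest. For Atp6v0a1 it was replicate 2, by a small distance.

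A distance of at least 2-fold from the lowest to the highest library was found for 18 of the 39 genes, against 25.2% of all genes tested. Without replicate 2, 4 genes (Atp6ap2, Ctsd, Lyz2 and Tfeb) were at least 2-fold apart between replicates 1 and 3, against 14.9% of all genes. Without replicate 1 the count was 17 (11.7% of all genes), and without replicate 3 it was 15 (13%).

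The departure of replicate 2, given as the log2 of its TMM-scaled counts minus the mean of replicates 1 and 3, had a median of 0.58 over the 39 genes (1.49-fold), against 0.07 over all genes tested and 0.12 over protein-coding genes. Replicate 2 was singled out because an earlier result of these same data had cytoplasmic mRNAs highest there, so the choice was not independent. The macrophage markers had a median of 0.7 (1.63-fold). The granule gene Mmp8, the 1 neutrophil marker tested, was 10.5-fold higher in replicate 2. It had only 0.06, 0.72 and 0 TPM and a mean of 12 counts, close to the filter of 10 counts. The part of these markers in the result was not tested. By role, the median fold was 4.35 for Lamp1, Lamp2 and Cd68, 3.84 for Ctsd and Ctsa, 2.43 for the accessory proteins, 2.2 for 9 cysteine cathepsins, 1.34 for 9 V1 genes, 1.33 for 8 V0 genes, 1.02 for Tfe3 and Tfeb and 0.941 for the mucolipins. Lyz2 reached 13.6-fold and Cd68 7.05-fold. Single genes differed within a role: Ctsd was at 10.2-fold but Ctsa at 1.44-fold, and Lamp1 was at 4.35-fold but Lamp2 at 1.21-fold. At the other end, Mcoln2 was at 0.746-fold, and Tfeb, Atp6v0b, Mcoln1, Atp6v0a2 and Tcirg1 lay between 0.9 and 0.966-fold. Within V1 the departure reached 4-fold for Atp6v1f and 2.52-fold for Atp6v1g1, but only 1.09-fold for Atp6v1h. Within V0 it was 3.58-fold for Atp6v0d2 and 2.78-fold for Atp6v0d1.

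**Figure D2:**
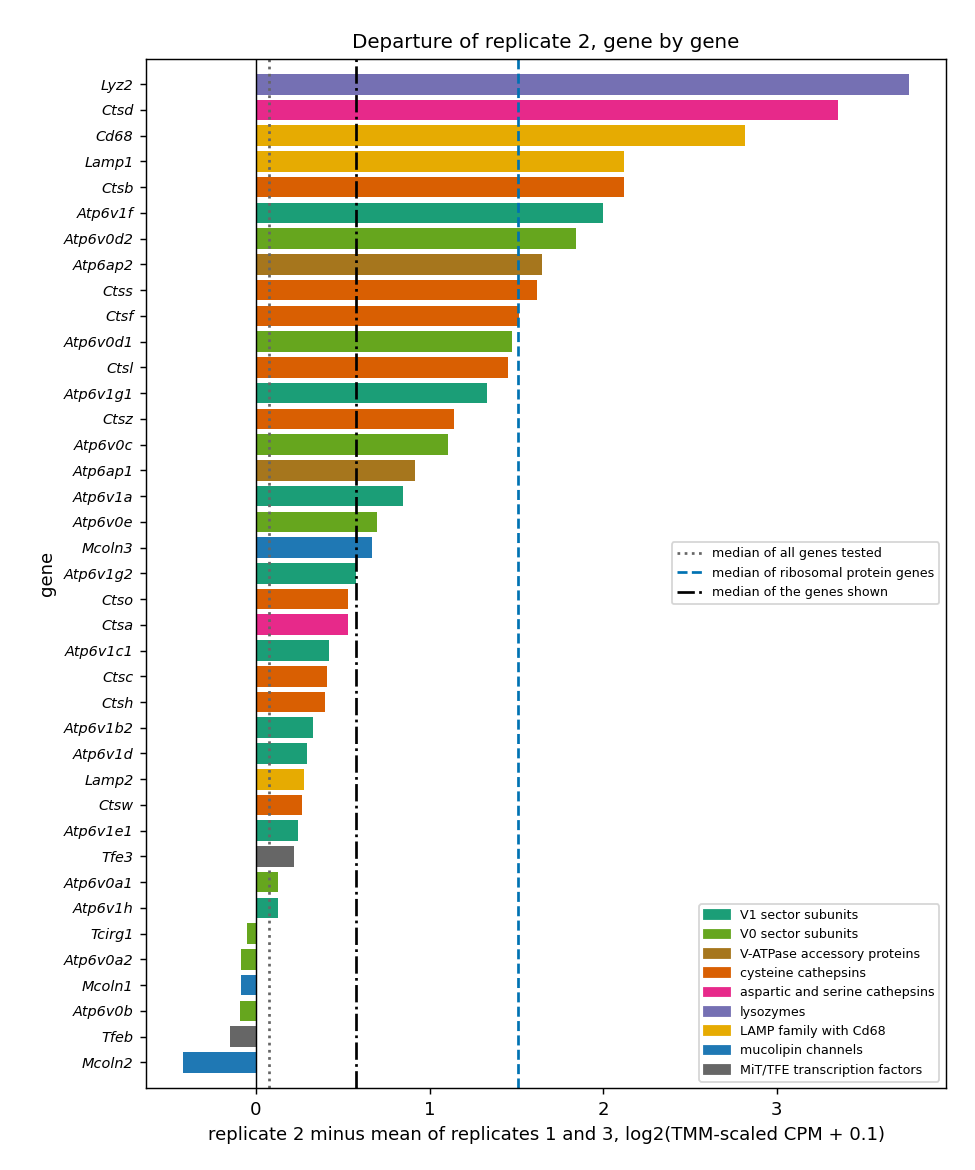
Departure of replicate 2 from the mean of replicates 1 and 3 (horizontal, log2 of TMM-scaled CPM + 0.1) for the 39 genes, with bars coloured by role and lines at the medians of all genes tested, of these genes and of ribosomal protein genes. Lyz2, Ctsd and Cd68 are at the top and Mcoln2 is the lowest of the 6 genes below 0.

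Genes of longer span tended to depart less: Spearman's rho between departure and genomic span was -0.345 across the 39 genes and -0.22 across 11022 protein-coding genes, as a description over genes measured in the same libraries.

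Isoforms annotated with a retained intron were set against protein-coding isoforms within each library, as the log2 of summed TPM + 0.1, and tested against 0 with limma over 5603 genes with both kinds and a mean count of at least 50. Of 26 genes tested, coding isoforms were higher in 10 (29.7% of all genes tested) and retained-intron isoforms in 4 (19.3% of all), while 12 were not called. These shares are read against those of all genes: 10 of 26 lies near the first and 4 of 26 near the second.

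Ctsd was furthest to the coding side, with coding isoforms at 69.2, 550 and 37.4 TPM and retained-intron isoforms at 0.95, 4.07 and 3.12 TPM. Its ratio was -5.54 ± 0.66 (SE) on the log2 scale, with a limma adjusted p of 0.00235. Mcoln3 followed with coding isoforms at 4.26, 5.65 and 2.55 TPM and retained-intron isoforms at 0.32, 0.13 and 0.24 TPM (ratio -3.66 ± 0.39, adjusted p = 0.00177). Atp6v0b, with coding isoforms at 179, 198 and 217 TPM and retained-intron isoforms at 68.5, 73 and 81.6 TPM, had nearly the same ratio in each library, between -1.39 and -1.44 (adjusted p = 0.00753).

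On the other side, Ctsh had retained-intron isoforms at 29.9, 39.9 and 47 TPM and coding isoforms at 2.33, 16.3 and 5.96 TPM, a ratio of 2.62 ± 0.48 with an adjusted p of 0.00755. Atp6v1d, Atp6v0a2 and Atp6v1b2 had ratios of 1.51, 1.47 and 1.39. Atp6v1b2, for example, had retained-intron isoforms at 50.6, 56.3 and 68.6 TPM and coding isoforms at 21.5, 31 and 16.1 TPM. For Atp6v1d the retained-intron isoforms had 11.4, 11.8 and 11 TPM and the coding isoforms 2.97, 5.05 and 4.07 TPM. For Atp6v0a2 they had 6.74, 7.75 and 10.9 TPM against 2.13, 3.33 and 3.54 TPM. In these 4 genes the level given to isoforms annotated with a retained intron exceeded that of the coding ones in each library. RNA on chromatin can be unspliced or partly spliced. Reads from introns not yet removed cannot be told apart here from such isoforms, and this holds for every ratio in this section.

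The other calls to the coding side were Atp6ap2 (ratio -2.11), Ctsl (-1.6), Atp6v0d1 (-1.47), Atp6v1a (-1.3), Mcoln2 (-1.29), Tfeb (-1.23) and Lamp2 (-1.12). In Atp6ap2 coding isoforms had 5.9, 17.6 and 3.98 TPM and the retained-intron isoform 2.14, 1.19 and 1.75 TPM. The other quantifier gave ratios of -1.07 for Atp6ap2 and -0.38 for Atp6v0d1, neither of them called (limma adjusted p = 0.117 and 0.293). In Ctsl coding isoforms had 25.7, 74.8 and 25.7 TPM and retained-intron isoforms 8.01, 12.2 and 18 TPM, but the other quantifier gave a ratio of 0.05 with no call (limma adjusted p = 0.892). In Mcoln2 coding isoforms had 151, 124 and 148 TPM against 45.4, 48.3 and 86.4 TPM. For Atp6v0d1, Atp6v1a and Lamp2 the coding isoforms had 5.52, 15.7 and 4.23 TPM, 19.9, 43.9 and 18.6 TPM, and 20 to 48.8 TPM, and the retained-intron isoforms 2.14 to 2.93 TPM, 6.32 to 15.8 TPM and 7.99 to 29.4 TPM. Tfeb coding isoforms had 1.2 to 1.85 TPM and retained-intron isoforms 0.38 to 0.99 TPM.

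Tcirg1 had 431, 595 and 628 TPM of retained-intron isoforms against 340, 333 and 328 TPM of coding isoforms, a ratio of 0.7 ± 0.28 that was not called (adjusted p = 0.0841). Its coding isoforms hardly differed between libraries. Lamp1 was not called either (ratio -1.4 ± 0.59, adjusted p = 0.0978), with coding isoforms at 21.9, 126 and 26.6 TPM and retained-intron isoforms at 14.8, 13.4 and 19.9 TPM: the high level of replicate 2 was in the coding isoforms alone. In Ctsb, by contrast, both kinds were highest in replicate 2, with coding isoforms at 86, 432 and 69.3 TPM and retained-intron isoforms at 95.5, 286 and 148 TPM. The other quantifier called Tcirg1 and Ctsb to the retained-intron side (0.85 and 1.23, limma adjusted p = 0.0179 and 0.0277). It called Lamp1 to the coding side (-1.34, limma adjusted p = 0.0471). With a pseudocount of 1, Tcirg1 was called too (limma adjusted p = 0.0352).

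The calls rested on few libraries. There were 5 without replicate 1 and 9 without replicate 2, against 14 with all 3 and 16 without replicate 3. The shares of all genes called with a library left out are not given here. The calls of Atp6v0b, Ctsd, Ctsh and Mcoln3, 4 of the 14, were kept with the same sign under each of 7 alternatives.

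**Figure D3:**
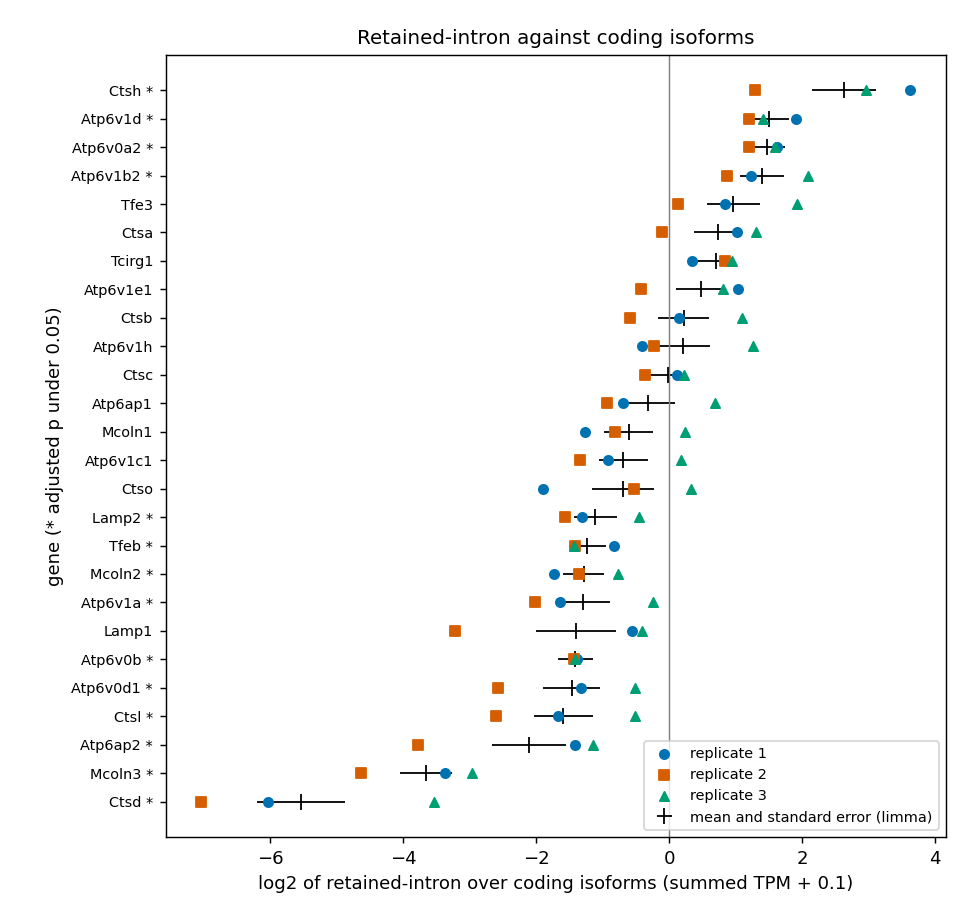
Log2 ratio of retained-intron over coding isoforms (horizontal, summed TPM + 0.1) of the 26 genes tested, with a point per library and the mean with its standard error from limma, where a star marks an adjusted p under 0.05. Replicate 2 is the leftmost point in 20 genes, and Ctsd and Ctsh are the extremes.

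The ratio was lowest in replicate 2 in 20 of the 26 genes, against 43.1% of all genes tested. It was highest in replicate 3 in 20 of 26, against 68.9% of all genes. The ratio in replicate 2 minus the mean of the others had a median of -0.95 over the 26 genes and -0.23 over all. The gap was -2.74 for Lamp1, -2.5 for Atp6ap2, -2.25 for Ctsd and -2.01 for Ctsh, and close to 0 for Atp6v0b (-0.04). It was above 0 for Tcirg1 (0.2) and Ctso (0.26). Genes with a larger departure of level in replicate 2 had a larger shift to coding isoforms there. Spearman's rho was -0.737 across these 26 genes and -0.417 across all 5603, a description over genes that share libraries and depth. A gene's level includes the coding isoforms by which its ratio is divided, so both measures share reads and are not independent.

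**Figure D4:**
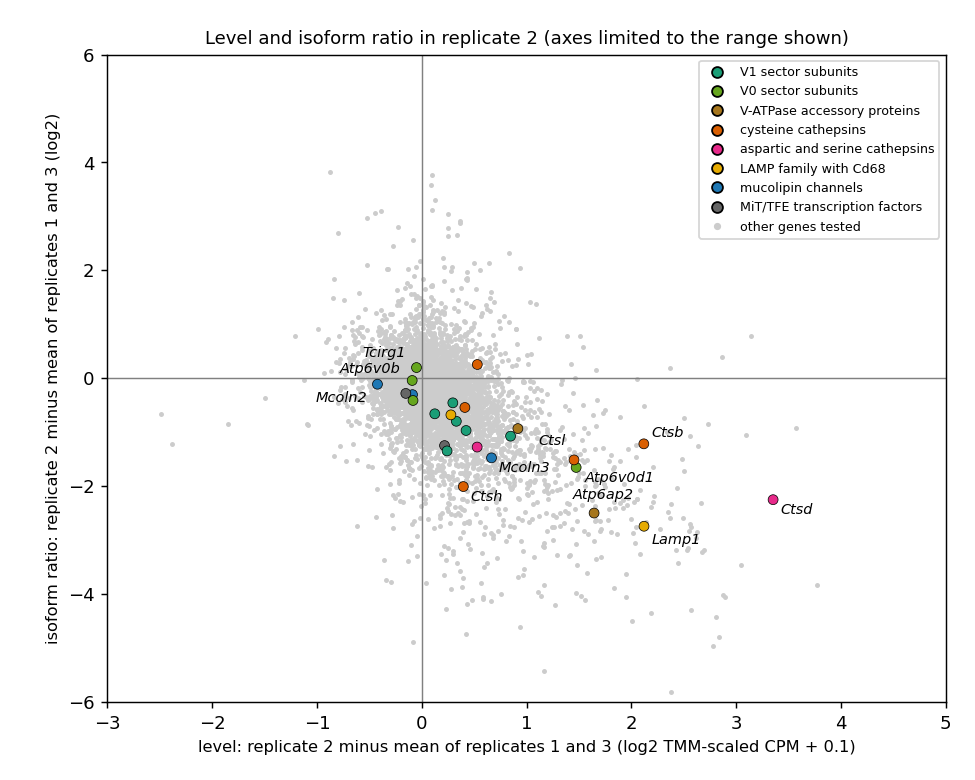
Departure of the level in replicate 2 (horizontal, log2) against the change of the isoform ratio in replicate 2 (vertical, log2), both relative to the mean of replicates 1 and 3, for the 26 genes (coloured by role) and the other genes tested (grey, 6 of them beyond the axes). Lamp1, Atp6ap2 and Ctsd lie at the lower right, and Tcirg1 and Atp6v0b lie near the origin.

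Other lysosomal genes were counted in the same way. Among all genes tested 68.8% were called, and 24.3% were called and highest in replicate 2. The counts of each list below, taken out of all genes of the list, are read against these shares. Of 37 lysosomal hydrolases and cofactors, 36 were called between libraries and 35 of these were highest in replicate 2. Psap, the precursor of the saposins, had 342, 1018 and 199 TPM and Lgmn, an asparagine-specific protease, 53.4, 125 and 39.3 TPM, while Smpd1 was lowest at a mean of 0.75 ± 0.556 TPM. Of 22 lysosomal membrane proteins, 20 were called and 14 of these were highest in replicate 2. Cln3 led them with 594, 473 and 505 TPM, followed by Clcn7 and Npc2 with means of 168 and 148 TPM, and Abca2 was lowest at 1.65 TPM. The median departures of replicate 2 were 2.31-fold for hydrolases and 1.4-fold for membrane proteins, and no test was made between the lists.

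All 16 genes of nutrient and MiT/TFE control were called (68.8% of all genes tested), 9 of them highest in replicate 2 and 5 in replicate 1. Their median departure was 1.14-fold. The MiT/TFE relatives Tfec (73.8, 96.8 and 118 TPM) and Mitf (46.7, 55 and 73.6 TPM) were above Tfe3 and Tfeb in each library, as was the folliculin partner Fnip2 at a mean of 66.4 TPM, and Rragd was lowest of the list at 1.62 TPM. Of 7 V-ATPase assembly factors 4 were called, 1 of them highest in replicate 2, with Dmxl1, Dmxl2 and Wdr7 at 42.4 ± 2.34, 31.2 ± 0.813 and 15.7 ± 0.596 TPM and Rogdi at 0.837 TPM. Of 5 genes that sort enzymes to lysosomes all were called and 4 were highest in replicate 2, with M6pr, Gnptab and Igf2r at 29.9, 16.1 and 11.3 TPM and Sort1 at 0.78 TPM. In the other quantifier Igf2r was the highest of them, at 37.2 TPM against 22.2 for M6pr and 20.5 for Gnptab.

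In annotation GENCODE M21, 21 of the 57 genes overlap another gene, 17 of them a gene on the opposite strand. For Lamp1 this was Grtp1, over 3317 bases and at a mean of 7.26 TPM. For Ctsc it was the noncoding Gm26522, over 4743 bases and at 27.1 TPM. For Ctss the processed pseudogene Hmgb1-ps5 lies within the gene on the same strand and had 48.4 TPM. Levels of these genes carry that uncertainty.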

How the data were processed

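Per the labels, ribosomal RNA-depleted total RNA of the chromatin fraction was sequenced from fragments of 250 to 400 nt. For each library the authors deposited gene and transcript tables of expected counts and TPM made from transcriptome alignments, and another transcript table with estimated counts and TPM that was derived straight from reads (the other quantifier), for mm10 with GENCODE M21 per the deposited notes. Which tools were used, in which versions and with what strand setting is not given in the sources. Entries without annotation (0.845%, 0.282% and 0.179% of counts) were left out.

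Expected counts were rounded and scaled with TMM (edgeR 4.0.16), and genes averaging at least 10 counts were tested by chi-square. Isoform ratios were tested with limma 3.58.1 (moderated, R 4.3.3), using a pseudocount of 0.1 and a mean count of at least 50. P-values were adjusted by Benjamini-Hochberg over all genes. DESeq2 1.42.0 size factors, other filters, pseudocounts, the other quantifier and leaving out each library were alternatives. The floor of 3 counts covers counting error only. Zero-count limits use these totals, and reads are not independent molecules.

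The genes and lists, and replicate 2 as the library set against the others, were chosen with earlier results of these data known. Values in every library are given for genes with a mean of at least 10 TPM and for paralogs of pump subunits, and other genes are given by mean or range. Of each pathway list and of the macrophage markers the 3 highest and the 1 lowest are named, except 1 hydrolase that is not reported here; of the other cell type lists, genes without a count are named, with the highest of the osteoclast list and genes that only the other quantifier placed at 1 TPM or more. Genes below 10 TPM with a value in every library, overlapping genes and examples of uncalled isoform ratios were chosen after their values were seen.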

Additional observations from a re-analysis of the deposited data

How the results depend on the processing

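No paired analysis was possible because there is 1 group. The number of genes called between libraries stayed within 1.5 times of 35 under DESeq2 size factors, no filter and the other quantifier, and lay between 27 and 33 when a library was left out. The number of genes highest in replicate 2 (scales chosen after seeing the data) was 15 of 39 by TPM of the other quantifier, against 29. The number at least 2-fold apart, also run after seeing the data, lay between 4 (14.9% of all genes) and 17 (11.7%) when a library was left out. The median departure of replicate 2 was 0.58, with 0.51 under DESeq2 size factors, 0.42 in the other quantifier and 0.65 to 0.72 when set against a single other library; it was above 0 in each. Isoform calls numbered 5 to 16 when a library was left out (4 to 12 on the coding side and 1 to 5 on the retained-intron side), and 9 retained-intron calls, against 4, came from the other quantifier. The shares of all genes called under these isoform settings are not given here. In the other quantifier the call of Ctsl was lost (0.051, limma adjusted p = 0.892), as were those of Atp6ap2 and Atp6v0d1. The uncalled Ctsc and Atp6v1h were called there with the other sign (0.91 and -0.69, limma adjusted p = 0.019 and 0.0415). Ctsa, Ctsb, Lamp1, Tcirg1 and Tfe3, also uncalled before, were called there with the same sign. Atp6v1c1 (0.21) and Atp6v1e1 (-0.23) changed sign without a call. The cause was not tested. The number of genes with at least 1 TPM, 36, was 40 at 0.1 TPM, 30 at 5 TPM and 37 in the other quantifier. Mean TPM moved beyond the spread between libraries for 19 of 57 genes in the other quantifier and for 48 when rescaled to protein-coding genes, which raises every gene with a count. Depth limits what can be said of genes with at most 3 counts.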
